A study of Mus musculus with 6 samples.

Results

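The genes described here encode the phase II conjugation enzymes, which attach a polar group to drugs, dietary toxins, bilirubin, bile acids and hormones. They were picked out by gene symbol, the choice of these families having been made with earlier results of these data known, and comprised 70 protein-coding genes of the 55335 genes in the deposited count table. The families were the UDP-glucuronosyltransferases (Ugt1a, Ugt2 and Ugt3a), the cytosolic glutathione S-transferases (Gst), the microsomal glutathione S-transferases (Mgst), the sulfotransferases (Sult) and 3 N-acetyltransferases (Nat1, Nat2 and Nat8). Of the 70 genes, 41 were abundant enough to test, 18 had no count in any library and 11 had a few counts without reaching the minimum. A gene abundant in a single group can pass that minimum through that group.

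The series holds RNA-seq libraries of intestinal tissue from 3 wild-type (WT) mice and 3 Trmt6-/- mice, and every animal had colitis brought on by DSS (dextran sulfate sodium), which damages the gut lining. The TRMT6 protein pairs with the catalytic TRMT61A to methylate adenosine in tRNA. Strain, age, sex, intestinal segment, DSS dose and days of exposure, and whether the deletion was whole-body, are not given in the sources used here, and animals without DSS were not analysed here. The libraries carry animal names, KO72, KO73 and KO75 for the mice labelled Trmt6-/- and WT185, WT186 and WT187 for WT.

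Glucuronidation uses UDP-glucuronate and takes place in the endoplasmic reticulum, sulfation uses the sulfate donor PAPS, and glutathione transferases use glutathione to trap electrophiles. In the gut these enzymes sit mainly in absorptive enterocytes, where they form part of the barrier against ingested chemicals, and many drug-metabolising enzymes are known to be more abundant in the proximal than in the distal small intestine. Alpha and mu class Gst genes and several Ugt genes are known targets of the stress-responsive transcription factor NRF2 (gene Nfe2l2), of the aryl hydrocarbon receptor (Ahr) and of the nuclear receptors CAR (Nr1i3) and PXR (Nr1i2).

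The libraries held 15213972 to 16972758 counts. Levels are CPM, the counts of a gene divided by the scaled library size, and library values always follow the order KO72, KO73, KO75 against WT185, WT186, WT187. Group levels are mean ± SD (n = 3 each) in the same order. Log2 fold changes carry their SE and are above 0 where the Trmt6-/- label had the higher level. Trmt6 itself stood at 39.8, 34.2 and 36.2 CPM against 30.9, 18.7 and 23.1 CPM. The targeted gene thus stood higher in every library labelled Trmt6-/- than in any WT library. Its log2 fold change was 0.60 ± 0.21 (edgeR unadjusted p = 0.0256, adjusted p = 0.335). Every direction below rests on the labels. Absorptive enterocyte genes were abundant in all libraries (6 listed genes summing to 24305 to 37138 CPM against 13799.7 to 33774 CPM), whereas fibroblast and muscle genes summed to at most 8.47 CPM. WT186 stood apart in the conjugation enzyme genes, and values without it are given beside many of the results below.

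No conjugation enzyme gene passed the test, and the members lay mostly on the lower side in the libraries labelled Trmt6-/-. With edgeR, 0 of the 41 tested members had an adjusted p below 0.05, as against 6 of 14107 genes in all (0.0425%). DESeq2 called 10 of the 39 members to which it gave an adjusted p (4.54% of all such genes), and limma-voom called 0 members (0% of all genes). DESeq2 gave no p for Gstm1 and Gstm4, whose WT186 levels were 13.0 and 8.42 times the mean of the other WT libraries. At an unadjusted p below 0.05 there were 19 members where 12.1% of all tested genes reached that level. Of these, 17 were lower in the libraries labelled Trmt6-/- (41.5% of the members, against 5.94% of all genes) and 2 were higher (4.88%, against 6.15%). The same numbers of members separated the groups without overlap, 17 lower (9.03% of all genes) and 2 higher (9.70% of all genes). The log2 fold change was below 0 for 34 of the 41 members, as for 53.9% of all tested genes. The median log2 fold change was -0.89 over the 41 members and -0.03 over all tested genes. The unadjusted count was 12 without KO72 (9.59% of all genes) and 11 without KO73 (7.14%), and 9 with an index of intestinal position as a covariate (3 lower against 10.7% of all genes, 6 higher against 10.1%).

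A single WT library, WT186, was the highest for most members. Of the 41 tested members 35 were highest in WT186, where 24.7% of all tested genes were highest in that library. For 23 members WT186 exceeded the higher of the other WT libraries by more than 2 times, which held for 4.62% of all genes. The 70 members together summed to 2666, 3429 and 4208 CPM against 3329, 10655 and 3702 CPM. The other WT libraries lay within the range of the libraries labelled Trmt6-/-. With that library left out, 13 members were lower at an unadjusted p below 0.05 (4.68% of genes tested) and 3 were higher (6.84%), 26 had a log2 fold change below 0 (51.6% of genes), and the median was -0.22 over the members beside -0.02 over all genes. In bulk tissue fewer cells of a type and less RNA per cell cannot be told apart.

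**Figure D1:**
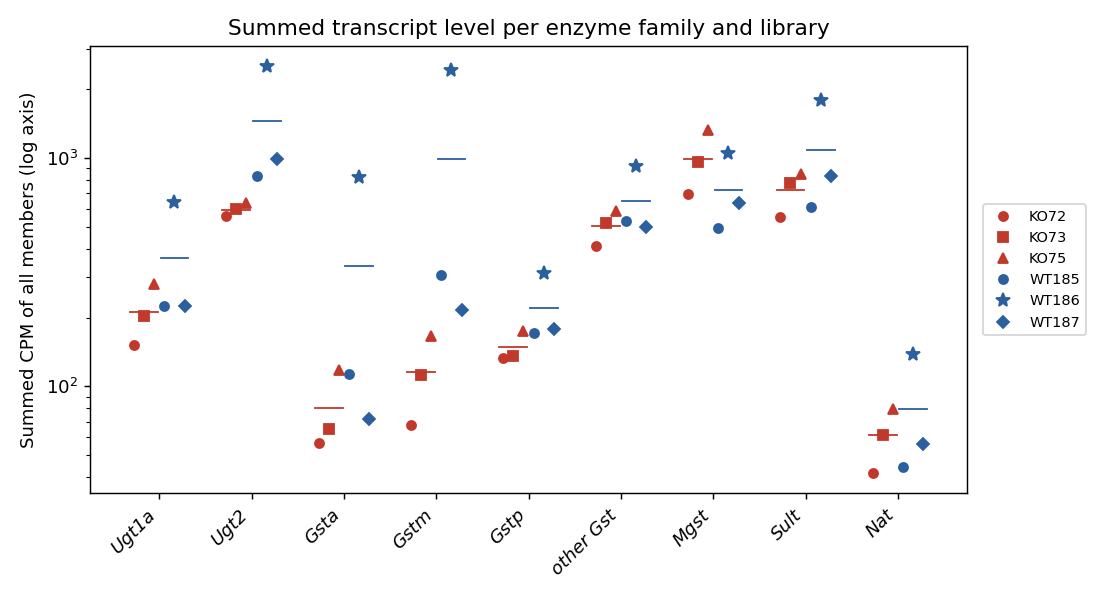
Summed CPM of all members of each enzyme family (log axis) in each library, with the group mean as a line, red for the libraries labelled Trmt6-/- and blue for WT. WT186 (star) is the highest library in 8 of the 9 families drawn, and KO75 is highest for Mgst.

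WT186 also stood apart in pancreatic acinar cell genes, whereas in Lct and in the index of intestinal position WT187 lay nearest to it. The proximal small intestine gene Lct, which encodes lactase, stood at 119, 771 and 664 CPM against 756, 3192 and 2592 CPM (-2.07 ± 0.79, and -1.67 ± 0.83 without WT186). Of 6 proximal markers, 3 (Lct, Adh1 and Gata4) were lower in the libraries labelled Trmt6-/- at an unadjusted p below 0.05, 3 were not, and their sum ran from 1550 to 7240.4 CPM in those libraries and from 2749 to 11383 CPM in WT. The 4 pancreatic acinar cell genes (Cpa1, Cela2a, Prss2 and Pnlip) summed to 33.8 CPM in WT186 and to 0 in WT185 and WT187, with at most 0.21 CPM in the libraries labelled Trmt6-/-. The index of position (ileal minus proximal markers, log2) was 0.59, -1.02 and -3.25 against -1.47, -6.82 and -5.64, and T and NK cell genes summed to 76.0 to 665 CPM against 247 to 924 CPM. Of the 4 ileal markers found, Slc51b was higher at that level, and their sum ran from 179 to 832 CPM against 35.6 to 813 CPM. The part of intestinal position or of other cells in the results below was not tested. The index came from these same libraries, WT186 and WT187 lay lowest in it, and it includes Lct and Gata4. In the covariate fit position and genotype therefore cannot be told apart.

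Of the UGT2 enzymes, which glucuronidate steroids, bile acids and fatty acids, all 5 tested members lay lower in the libraries labelled Trmt6-/- without overlap of the groups. Ugt2b34 was the most abundant member by CPM, at 486, 502 and 537 CPM against 643, 1816 and 769 CPM (log2 fold change -1.08 ± 0.41, edgeR adjusted p = 0.364). The libraries labelled Trmt6-/- were close together and all WT libraries stood above them. Ugt2a3 stood at 30.5, 49.2 and 59.7 CPM against 83.6, 289 and 157 CPM (-1.92 ± 0.47, edgeR adjusted p = 0.212). Ugt2b5 stood at 3.39, 4.68 and 4.27 CPM against 22.6, 162 and 6.35 CPM (-3.95 ± 1.14, edgeR adjusted p = 0.264). The WT values of Ugt2b5 spread widely, and WT187 lay just above the highest library labelled Trmt6-/-. Of the 50-base stretches in Ugt2b5 transcripts 41.7% also occur in transcripts of other genes, mainly Ugt2b38, Ugt2b37 and Ugt2b36. Reads mapped to several places were not counted, so the level of Ugt2b5 is uncertain. Ugt2b35 (-1.93 ± 0.56) and Ugt2b36 (-1.48 ± 0.47) showed the same order of groups at 29.6 ± 4.27 against 113 ± 93.1 CPM and at 5.64 ± 0.312 against 15.7 ± 10.4 CPM. Without WT186, Ugt2a3 (-1.35 ± 0.36), Ugt2b5 (-1.81 ± 0.54), Ugt2b35 (-1.01 ± 0.25) and Ugt2b36 (-0.80 ± 0.31) remained below an unadjusted p of 0.05 and Ugt2b34 (-0.46 ± 0.19) did not. With the index of position as covariate Ugt2a3 was the one member of the 5 below that level (-0.82, unadjusted p = 0.0125).

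The UGT2 genes lie on GRCm38 chromosome 5 in a stretch from 86889767 to 87591594 that also holds the sulfotransferase genes Sult1b1, Sult1d1 and Sult1e1. Sult1b1 and Sult1d1, which sulfate phenols, thyroid hormones and catecholamines, did not separate the groups although they neighbour the UGT2 genes. Sult1b1 stood at 195, 244 and 355 CPM against 209, 603 and 379 CPM (-0.58 ± 0.41). Sult1d1 stood at 224, 338 and 296 CPM against 237, 535 and 323 CPM (-0.35 ± 0.33). Within each library the counts of Ugt2a3 relative to Sult1b1 were 0.156, 0.202 and 0.168 in the libraries labelled Trmt6-/- and 0.401, 0.479 and 0.414 in WT. This ratio does not depend on the scaling of libraries, and WT186 lay near the other WT libraries in it. The exact permutation test over 3 against 3 libraries, two-sided, gave p = 0.1, the smallest it allows. The gene pairs of this and 3 further ratios were chosen after their values were seen, and p adjusted over the 4 ratios was 0.1 for each. Because of that choice the p values of these ratios add no support. Ugt2a1 and Ugt2a2 share nearly all their exon bases with each other or with the overlapping gene Gm43638. This leaves 30 and 140 bases of their own, so their 2 and 0 counts say little about their transcripts.

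The UGT1A genes on chromosome 1 (88055388 to 88220002) have separate first exons and share the remaining ones. Reads in shared exons were not assigned to any of them, so each count rests on 385 to 2142 bases of its own. Ugt1a1, which conjugates bilirubin, stood at 33.0, 47.5 and 67.3 CPM against 36.8, 72.5 and 58.4 CPM (-0.18 ± 0.33). Per kilobase of its own exons its level was 127.9 ± 44.7 against 145 ± 46.7 CPM, similar in size to that of Ugt1a7c, at 81.1 ± 24.8 against 150 ± 108 CPM per kilobase. Ugt1a7c, a UGT of gut and other extrahepatic epithelia, stood at 111, 149 and 206 CPM against 178, 527 and 159 CPM (-0.89 ± 0.50), its groups overlapped, and its value without WT186 was -0.11 ± 0.28. Ugt1a9 was low in all libraries, at 0.226, 1.12 and 0.854 CPM against 4.27, 17.1 and 1.98 CPM (-3.42 ± 0.96, edgeR adjusted p = 0.252), and separated the groups. Its value without WT186 was -2.09 ± 0.71. Ugt1a6a (-0.89 ± 0.62, and 0.24 ± 0.26 without WT186) did not reach an unadjusted p of 0.05, and Ugt1a2, Ugt1a5, Ugt1a6b and Ugt1a8 had 4 to 21 counts over all libraries. Ugt1a10 and both Ugt3a genes had none.

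The mu class glutathione transferases gave the widest range between libraries. The 7 Gstm genes lie side by side on chromosome 3 (107895821 to 108044894) and summed to 67.4, 113 and 166 CPM against 308, 2437 and 216 CPM. Gstm3 stood at 18.5, 33.0 and 67.9 CPM against 152, 1394 and 103 CPM (-3.79 ± 1.12, edgeR adjusted p = 0.272). Gstm1 stood at 19.5, 30.7 and 31.6 CPM against 58.5, 656 and 42.5 CPM (-3.21 ± 1.07, edgeR adjusted p = 0.310). In both genes WT186 was more than 9 times the next library, and the other WT libraries still lay above all libraries labelled Trmt6-/-. Of the 50-base stretches in their transcripts 28.8% (Gstm3) and 18.9% (Gstm1) also occur in transcripts of other genes, which limits these levels. Gstm2 (-2.34 ± 0.66), Gstm4 (-2.62 ± 0.93) and Gstm6 (-2.09 ± 0.77) also separated the groups, and Gstm7 (-1.54 ± 0.71, and -0.42 ± 0.49 without WT186) did not. Gstm5 was not highest in WT186, unlike the other Gstm genes, and stood at 9.93, 9.71 and 9.39 CPM against 13.9, 12.1 and 8.81 CPM (-0.26 ± 0.24). The ratio of Gstm3 to Gstm5 counts was 1.86, 3.40 and 7.23 against 10.9, 115.5 and 11.6, so that WT186 stood apart in it (exact permutation p = 0.1, two-sided, the smallest possible). This pair was chosen after its values were seen, so that p adds no support. Without WT186 the value was -1.67 ± 0.52 for Gstm3, -0.88 ± 0.27 for Gstm1 and -1.30 ± 0.40 for Gstm2, each at an unadjusted p below 0.05, while Gstm4 (-0.81 ± 0.42) and Gstm6 (-0.95 ± 0.55) no longer reached it. With the index of position as covariate none of the 7 Gstm genes reached that level (Gstm3 at -1.79, unadjusted p = 0.0763).

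The sequences before the RefSeq transcription starts of Gstm1 and Gstm3 (GRCm38.p6, minus strand, printed 5′ to 3′) are shown because these genes of 1 cluster had the highest Gstm levels in WT186. Bases inside an exon of the deposited annotation were left out, 109 of 250 for Gstm3 and none for Gstm1. Capitals mark the xenobiotic response element core GCGTG, the letters bound by the aryl hydrocarbon receptor.
Gstm1, chr3:108017974-108018223: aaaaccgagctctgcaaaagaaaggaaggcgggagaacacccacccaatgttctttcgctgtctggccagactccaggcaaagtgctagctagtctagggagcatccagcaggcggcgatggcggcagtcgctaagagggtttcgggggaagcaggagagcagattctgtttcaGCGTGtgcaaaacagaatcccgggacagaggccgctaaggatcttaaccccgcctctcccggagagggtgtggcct
Gstm3, chr3:107969284-107969424: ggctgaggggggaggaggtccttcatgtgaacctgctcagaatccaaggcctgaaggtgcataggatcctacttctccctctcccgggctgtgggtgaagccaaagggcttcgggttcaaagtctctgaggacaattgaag
RefSeq gave a window for 60 of the 70 members, 73 windows in all. Searched on both strands over 250 bases before the start, GCGTG was present in 16.4% of the members' windows and in 28.2% of all 32851 windows. The antioxidant response element core TGACNNNGC, the letters bound by NRF2, was present in 5.48% against 10.2%, in the windows of Gsta3, Gstm5, Gstm7 and Mgst1. The HNF1 motif stood in the window of Ugt3a1 (1.37% against 0.0335%), and the DR1 nuclear receptor motif in no member's window (0.0335% of all windows). These matches describe letters and not sites in use.

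Alpha class transferases, which reduce lipid peroxides and conjugate their breakdown products, overlapped between groups except for Gsta4, the enzyme for 4-hydroxynonenal. Gsta4 (chromosome 9, 78182774 to 78209349) stood at 15.5, 14.2 and 11.7 CPM against 32.5, 201 and 23.5 CPM (-2.63 ± 0.82, edgeR adjusted p = 0.281). It kept an unadjusted p below 0.05 without WT186 (-1.01 ± 0.23) and not with the covariate (-1.31, unadjusted p = 0.237). Gsta1 stood at 29.6, 41.7 and 91.3 CPM against 73.2, 560 and 45.6 CPM (-2.06 ± 0.98), and without WT186 its value was -0.12 ± 0.50. Of the 50-base stretches in Gsta1 transcripts 90.5% also occur in transcripts of Gsta2 or other Gsta-like genes, and reads mapped to several places were not counted, so its level is uncertain. Gsta2 (-2.21 ± 1.15) and Gsta3 (-0.19 ± 0.96) overlapped between groups as well. For Gsta2, 49.8% of the 50-base stretches occur in transcripts of other genes, so its level is uncertain too. Gsta2 stood at 0.15 ± 0.66 without WT186. Gsta3 was listed at 9.14, 6.98 and 9.04 CPM against 3.07, 24.5 and 1.32 CPM, and its direction also turned without WT186 (1.93 ± 0.45, unadjusted p = 0.00475).

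Pi class genes did not share a direction. Gstp3 stood higher in the libraries labelled Trmt6-/-, at 12.3, 11.6 and 15.2 CPM against 4.79, 7.505 and 4.67 CPM (1.21 ± 0.28, edgeR adjusted p = 0.202). Its groups did not overlap, and its value without WT186 was 1.47 ± 0.26. With the index of position as covariate it was 1.52 (edgeR unadjusted p = 0.00247, adjusted p = 0.0922). Gstp1, the main pi class enzyme of most tissues, stood lower at 106, 107 and 135 CPM against 143, 238 and 149 CPM (-0.60 ± 0.24, edgeR adjusted p = 0.389), without overlap, and at -0.32 ± 0.17 without WT186 it no longer reached an unadjusted p of 0.05. Gstp2 stood at 19.0 ± 4.90 against 39.1 ± 25.0 CPM (-1.04 ± 0.44, and -0.36 ± 0.25 without WT186) and overlapped. Of the 50-base stretches of Gstp1 and Gstp2 transcripts, 33.7% and 54.3% occur elsewhere, mainly in each other, and none of those of Gstp3 do. The ratio of Gstp3 to Gstp1 counts was 0.116, 0.109 and 0.113 against 0.0336, 0.0315 and 0.0315. In this ratio the 3 libraries of each group lay within a narrow band, WT186 included, and the groups were 1.80 apart on the log2 scale (exact permutation p = 0.1, two-sided, the smallest that 3 against 3 allows). Because each gene separated the groups by itself, in opposite directions, this p was fixed in advance and adds no support. The pair was also chosen after its values were seen.

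Gstp1 and Gstp3 lie in 1 cluster on chromosome 19 (4035407 to 4059569), and the stretches before their RefSeq starts (GRCm38.p6, minus strand) are shown because these genes stood on opposite sides. Bases inside exons of the deposited annotation were left out, 73 of 250 for Gstp1 and 122 for Gstp3, and capitals mark GCGTG.
Gstp1, chr19:4037986-4038162: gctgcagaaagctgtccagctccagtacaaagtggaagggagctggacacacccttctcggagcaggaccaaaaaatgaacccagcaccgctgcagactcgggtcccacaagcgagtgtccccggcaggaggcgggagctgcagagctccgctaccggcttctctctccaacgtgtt
Gstp3, chr19:4059570-4059697: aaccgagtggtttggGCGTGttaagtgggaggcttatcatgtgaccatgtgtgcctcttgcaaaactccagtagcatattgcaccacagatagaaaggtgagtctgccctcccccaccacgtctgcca
The Gstp1 window holds the same letters once, 13 bases before the start and inside the exon bases left out.

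**Figure D2:**
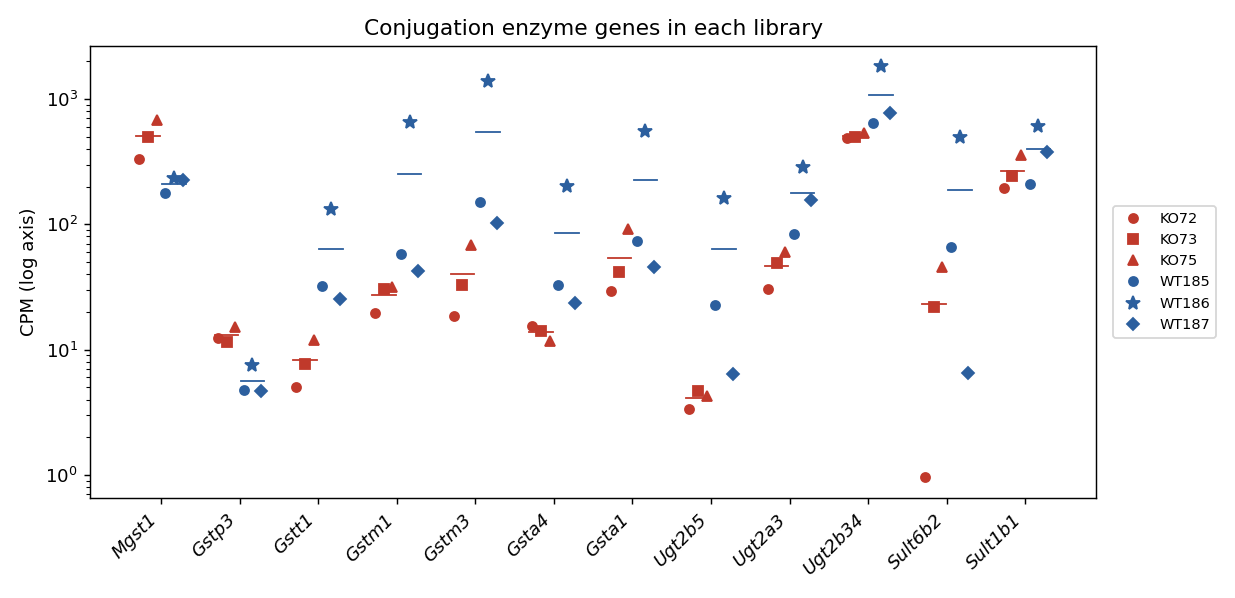
CPM of 12 members (log axis) in each library, with the group mean as a line, red for the libraries labelled Trmt6-/- and blue for WT. Mgst1 and Gstp3 stand higher in all 3 libraries labelled Trmt6-/-, Gstt1 to Gsta4 and Ugt2b5 to Ugt2b34 stand lower in all 3, and Gsta1, Sult6b2 and Sult1b1 overlap.

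Among the other cytosolic transferases, Gstt1 had the widest separation. Gstt1, a theta class enzyme that acts on small halogenated compounds (chromosome 10, 75783813 to 75798584), stood at 5.08, 7.75 and 12.03 CPM against 32.5, 132 and 25.3 CPM (-2.94 ± 0.71, edgeR adjusted p = 0.210). The lowest WT library lay above the highest library labelled Trmt6-/- by more than 2 times. Its value was -1.79 ± 0.38 without WT186 and -1.78 with the index of position as covariate (unadjusted p = 0.00281 and 0.0216). The unadjusted p of Gstt1 was below 0.05 under all 14 alternative fits, as were those of Ugt2a3, Gstp3 and Mgst1. The edgeR adjusted p of Gstt1 was 0.0364 when no low-count filter was applied (0.589% of all genes passed there), and its adjusted p ranged over all alternatives from 0.00103 with DESeq2 to 0.621. Gstk1 (-1.68 ± 0.55), a mitochondrial and peroxisomal enzyme, and Gstt3 (-0.66 ± 0.21) also separated the groups, at 15.3 ± 3.62 against 48.9 ± 39.5 CPM and 23.1 ± 0.203 against 36.5 ± 10.1 CPM. The WT values of Gstk1 were 22.7, 94.4 and 29.7 CPM, and its log2 fold change was -0.76 ± 0.26 without WT186 and -0.53 with the covariate (unadjusted p = 0.0237 and 0.285). Gstt3 stood at -0.40 ± 0.16 without WT186 and at -0.46 with the covariate (unadjusted p = 0.0445 and 0.119). Gsto1, an omega class thioltransferase, was among the most abundant members per kilobase, at 192 ± 34.8 against 208 ± 57.5 CPM per kilobase, and overlapped between groups (-0.12 ± 0.26). Gstz1, which takes part in tyrosine breakdown, stood at 38.8 ± 4.84 against 47.3 ± 6.08 CPM (-0.29 ± 0.16), and Gstt2 at 31.4 ± 5.05 against 30.8 ± 6.08 CPM (0.03 ± 0.20). Gsto2 and Gstt4 had 28 and 7 counts over all libraries.

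Mgst1, which encodes the microsomal glutathione transferase and peroxidase of the endoplasmic reticulum and outer mitochondrial membrane, stood higher in the libraries labelled Trmt6-/-. The gene (chromosome 6, 138140316 to 138156755) was measured at 331, 499 and 685 CPM against 178, 233 and 224 CPM (1.25 ± 0.29, edgeR adjusted p = 0.201). All 3 libraries labelled Trmt6-/- lay above all WT libraries, and WT186 did not stand apart. The unadjusted p stayed below 0.05 under all 14 alternative fits, with log2 fold changes from 0.98 to 1.67 and adjusted p from 0.00485 (DESeq2) to 0.597. Without WT186 the value was 1.34 ± 0.35, and with the index of position as covariate it was 1.67 (unadjusted p = 0.000383). Its relatives Mgst2 (0.02 ± 0.46, and 0.69 ± 0.30 without WT186) and Mgst3 (-0.18 ± 0.34) stood at 253 ± 72.6 against 250 ± 161 CPM and at 235 ± 68.1 against 266 ± 107 CPM, with overlap. The ratio of Mgst1 to Mgst3 counts was 1.98, 2.13 and 2.26 against 0.962, 0.601 and 0.997 (exact permutation p = 0.1, two-sided, the smallest possible). This pair too was chosen after its values were seen, so that p adds no support. The Mgst1 window before the RefSeq start held the antioxidant response element core on the opposite strand, as GCACGGTCA, 56 bases before the start and inside an exon of the deposited annotation. Muc2 and the other goblet cell genes listed leaned the same way as Mgst1 (5 genes, 1 higher at an unadjusted p below 0.05). Their sums overlapped, from 11902 to 16571 CPM against 8139 to 12679 CPM. Listed Paneth cell genes also leaned higher (median log2 fold change 0.765 beside 0.45 for goblet genes), and T and NK cell genes lower (-0.57). The part of such cells in the Mgst1 level was not tested.

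Sulfotransferases formed the family with most silent members. Of 21 Sult genes 7 were tested, 12 had no count, among them all 8 genes of the Sult2a cluster on chromosome 7 (13623967 to 14494230), which encode bile acid and steroid sulfotransferases of the liver, and 2 had 2 and 17 counts. Sult2b1, the cholesterol sulfotransferase of barrier epithelia, stood at 126, 166 and 148 CPM against 87.2, 160 and 122 CPM (0.25 ± 0.24). Sult1c2 was low but separated the groups, at 1.64, 1.89 and 0.783 CPM against 6.04, 4.78 and 2.10 CPM (-1.58 ± 0.53, edgeR adjusted p = 0.310), and WT186 was not its highest library. Its value was -1.50 ± 0.61 without WT186 and -2.13 with the index of position as covariate (edgeR unadjusted p = 0.0472 and 0.0101). Sult6b2, named after its values were seen, had the widest spread of the family, at 0.959, 21.9 and 46.0 CPM against 66.1, 494 and 6.53 CPM (-3.04 ± 1.64). Libraries of the same group differed in it by over 40 times, its groups overlapped, and its value without WT186 was -0.66 ± 1.37. Sult1a1 (0.54 ± 0.61) and Sult6b1 (-0.48 ± 0.45) overlapped too.

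The N-acetyltransferases showed overlapping groups. Nat2, which acetylates arylamines, stood at 16.5, 24.6 and 38.7 CPM against 15.2, 39.7 and 20.6 CPM (0.08 ± 0.44, and 0.58 ± 0.38 without WT186). Nat8, which acetylates cysteine conjugates in the last step of mercapturate formation, stood at 25.2, 36.9 and 41.1 CPM against 29.0, 98.6 and 35.4 CPM (-0.66 ± 0.48, and 0.11 ± 0.25 without WT186). Nat1 had no count.

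**Figure D3:**
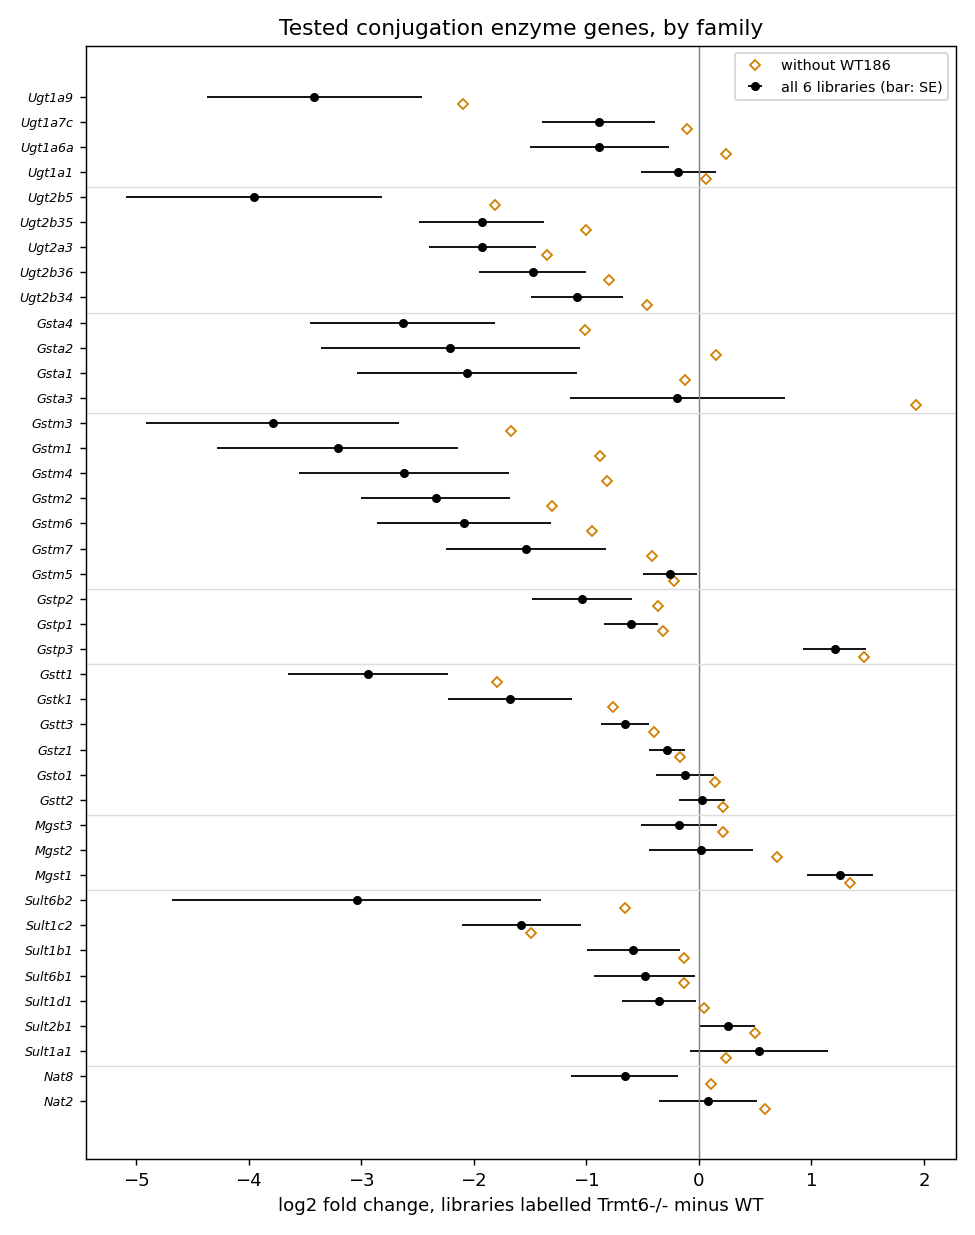
Log2 fold change of the 41 tested members grouped by family, libraries labelled Trmt6-/- minus WT (filled points, bars are the SE), and the same without WT186 (open diamonds). Leaving out WT186 moves most of the negative values toward 0, Gstt1 among them (-2.94 to -1.79), whereas Mgst1 and Gstp3 stay above 1.

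The cofactor and disposal genes around the enzymes were read from lists that hold no member. None of the 44 tested genes of the 6 lists passed the edgeR test, 7 were lower and 3 higher at an unadjusted p below 0.05 (5.94% and 6.15% of all genes). Of 7 glutathione supply and mercapturate genes, Gsr, which encodes glutathione reductase, was the one beyond that level, at 415, 397 and 630 CPM against 205, 163 and 173 CPM (1.41 ± 0.24, edgeR adjusted p = 0.128). All libraries labelled Trmt6-/- lay above all WT libraries. Ggt1, the most abundant of the list, stood at 623 ± 207 against 618 ± 359 CPM. Among 6 PAPS genes, Papss2, a PAPS synthase, followed the WT186 pattern at 115, 304 and 370 CPM against 850, 2956 and 180 CPM (-2.34 ± 0.96, edgeR adjusted p = 0.398), and without WT186 its value was -0.96 ± 0.72. Slc35b3, a PAPS carrier of the Golgi, stood higher at 66.3, 75.9 and 119 CPM against 37.8, 40.5 and 47.0 CPM (1.06 ± 0.24, edgeR adjusted p = 0.195).

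The remaining supply and export genes mostly overlapped between groups. None of 5 UDP-glucuronate genes reached an unadjusted p of 0.05. Ugdh, which makes UDP-glucuronate, stood at 168, 235 and 354 CPM against 242, 1072 and 263 CPM (-1.06 ± 0.63, and 0.01 ± 0.33 without WT186). WT186 was its highest library. None of the 7 tested export pumps reached that level either, and the canalicular and apical pump gene Abcc2 stood at 363, 400 and 294 CPM against 157, 1443 and 385 CPM (-0.91 ± 0.73, and 0.39 ± 0.38 without WT186). Of 6 other tested detoxifying enzymes, 3 were lower at that level, the epoxide hydrolase gene Ephx1 (7.28 ± 0.709 against 28.4 ± 29.5 CPM), Tpmt (8.19 ± 1.54 against 14.1 ± 5.08 CPM) and As3mt (32.4 ± 7.25 against 52.1 ± 9.57 CPM). Ephx1 stood at 6.55, 7.96 and 7.33 CPM against 11.9, 62.5 and 10.8 CPM, and its log2 fold change was -1.96 ± 0.70 and, without WT186, -0.63 ± 0.24 (unadjusted p = 0.0383). Without WT186 Tpmt (-0.45 ± 0.28, unadjusted p = 0.156) and As3mt (-0.53 ± 0.22, unadjusted p = 0.0512) did not reach that level. Nqo1, a standard NRF2 target, stood at 27.0, 24.3 and 34.5 CPM against 32.3, 106 and 31.2 CPM (-0.98 ± 0.49, and -0.14 ± 0.20 without WT186).

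Of 13 regulator genes 3 were lower and 1 was higher at an unadjusted p below 0.05, with no overlap of groups in these 4. Ahr, the aryl hydrocarbon receptor gene, stood at 15.2, 17.7 and 19.1 CPM against 35.7, 42.8 and 29.1 CPM (-1.05 ± 0.20, edgeR adjusted p = 0.153). Nfe2l2, which encodes NRF2, stood at 181, 174 and 203 CPM against 274, 499.8 and 366 CPM (-1.03 ± 0.25, edgeR adjusted p = 0.205). For both genes the WT libraries lay above the libraries labelled Trmt6-/- also without WT186 (-0.89 ± 0.20 and -0.77 ± 0.19). Ppara, the fatty acid sensor, was the third (-0.57 ± 0.20), and Nr1h4, the bile acid receptor FXR, was higher at 139, 125 and 123 CPM against 81.3, 49.2 and 41.0 CPM (1.18 ± 0.26, edgeR adjusted p = 0.190). The intestinal master regulator gene Hnf4a was the most abundant of the list at 1186 ± 88.4 against 989 ± 135 CPM, with overlap. Nr1i2 (0.27 ± 0.31), Nr1i3 (-0.54 ± 0.58) and Keap1 (-0.07 ± 0.13), which encode PXR, CAR and the NRF2 inhibitor, overlapped between groups.

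**Figure D4:**
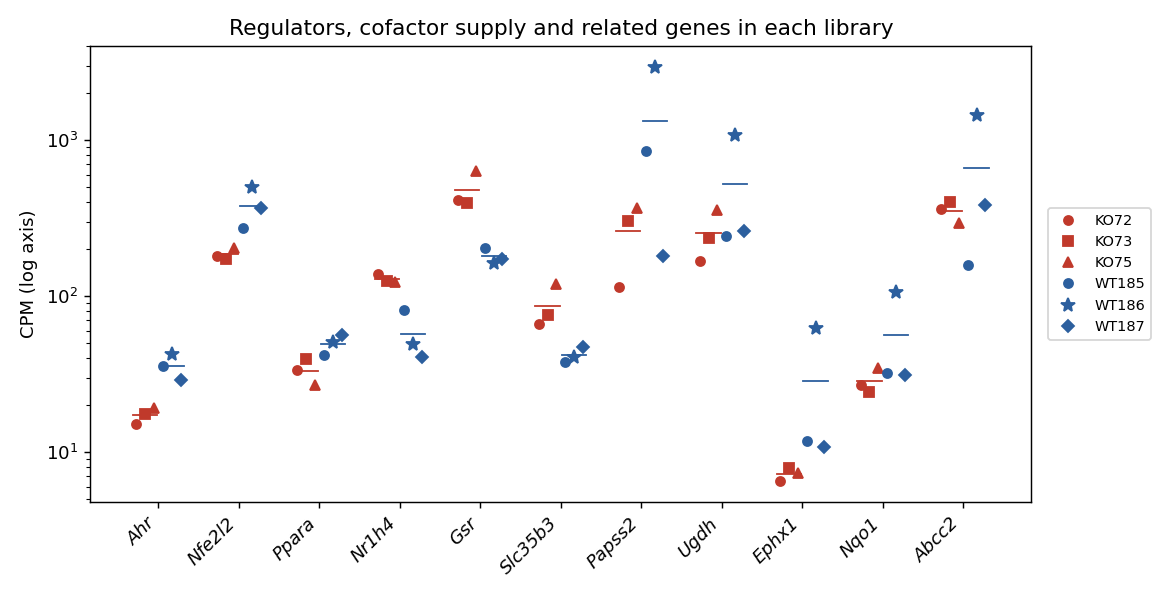
CPM of 11 regulator, cofactor and related genes (log axis) in each library, with the group mean as a line, red for the libraries labelled Trmt6-/- and blue for WT. Ahr, Nfe2l2 and Ppara lie lower and Nr1h4, Gsr and Slc35b3 higher in all 3 libraries labelled Trmt6-/-, while Papss2, Ugdh, Nqo1 and Abcc2 are highest in WT186 with overlapping groups.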

How the data were processed

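The authors deposited raw counts per gene, which per the file headers came from featureCounts 2.0.1 on paired reads with the GENCODE vM23 annotation, without strand, multimapping or overlap options. The submitters' processing notes name fastp, HISAT2 and mm10. Deposited gene lengths (unit: other) were read with exon coordinates to find bases not shared with another gene. Symbols and gene types came from GENCODE M21 on the same assembly (55154 of 55335 identifiers matched, 181 did not), and 7 pseudogenes were left out. Members and lists were chosen with earlier results of these data known. Columns were assigned to groups by name. The series design gives 3 mice a group. The cDNA was amplified per the labels' protocols, which name no molecular identifiers. Low counts were removed by filterByExpr and libraries scaled by TMM, then edgeR 4.0.16 (R 4.3.3) fitted genotype with its quasi-likelihood F test, two-sided, with Benjamini-Hochberg adjustment over 14107 genes. The SE is the fold change over the square root of F. The script was tested on simulated data. Alternatives were other scalings, filters, DESeq2 1.42.0, limma-voom (limma 3.58.1), each library left out, and a covariate of ileal (Fabp6, Slc10a2, Fgf15, Slc51b) minus proximal (Gata4, Lct, Cybrd1, Fabp1) mean log2 CPM. Named members were, per family, the 2 with the highest mean CPM and those at an unadjusted p below 0.05, with list genes at that level or most abundant. Other named genes were chosen after their values were seen.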

Additional observations from a re-analysis of the deposited data

How the results depend on the processing

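The count of members past an adjusted p of 0.05 was 0 in the reported fit, 10 with DESeq2 (8 lower, 2 higher), 1 without a low-count filter (Gstt1) and 0 under the other alternatives, including each library left out (0 to 0). Over all genes 6 passed in the reported fit, 0 with library totals, limma-voom or the index of position as covariate, 627 with DESeq2, 159 without a low-count filter and 0 to 6 with a library left out. The count of members at an unadjusted p below 0.05 was 19 (12.1% of all genes). With the covariate it was 9 (3 lower against 10.7% of all genes, 6 higher against 10.1%). It ran from 11 (without KO73, 7.14% of all genes) to 24 with a library left out. The share of all genes beside the 24 is not given here, so that count cannot be set against the background. Direction turned for 7 of the 30 members named by the rule, none of which passed the reported fit at an adjusted p of 0.05. With the covariate these were Gsto1 (0.21), Nat8 (0.32), Sult1b1 (0.36), Sult1d1 (0.27) and Ugt1a1 (0.51), and with library totals Mgst2 (-0.0066). With a library left out Gsto1 ran from -0.26 to 0.14, Mgst2 from -0.28 to 0.69, Nat2 from -0.29 to 0.58, Nat8 from -0.94 to 0.11, Sult1d1 from -0.56 to 0.046 and Ugt1a1 from -0.47 to 0.065. Of the tested members outside the rule, Gsta2, Gsta3, Gstt2, Mgst3, Sult1a1 and Ugt1a6a also turned direction in some alternative fit. With the covariate Mgst3 stood at 0.47 and Sult1a1 at -0.34. The cause of these changes was not tested. No paired analysis was possible because the table's columns carry animal names and not the replicate numbers of the labels. Precision was limited by 3 libraries a group and by WT186, with an SE of 1.12 for Gstm3 and 1.07 for Gstm1 beside 0.29 for Mgst1.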

Other observations

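Some listed genes outside the conjugation families also separated the groups without overlap, but none of those named here passed the edgeR test. Values follow the library order used above. Tat, which encodes the liver enzyme tyrosine aminotransferase and served as a hepatocyte marker, stood at 14.1, 50.1 and 72.4 CPM against 1.98, 0.955 and 0.180 CPM (log2 fold change 5.42 ± 0.90, edgeR adjusted p = 0.128). The other tested hepatocyte marker, Cyp2e1, was low and lay the other way. It stood at 0.959, 0.489 and 0.142 CPM against 3.02, 1.23 and 1.38 CPM (-1.79 ± 0.69, edgeR adjusted p = 0.374). Alb, the defining hepatocyte gene, was at 0 in the libraries labelled Trmt6-/- and at most 1.57 CPM in WT. Aqp8, a water channel gene, stood at 0.282, 0.698 and 0 CPM against 8.02, 54.5 and 0.959 CPM (edgeR adjusted p = 0.250).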
